A study of Homo sapiens with 8 samples.

Results

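The genes described here are regulators and effectors of the unfolded protein response and the integrated stress response, measured in U2OS cells, a human osteosarcoma line, after silencing of CDK9, the kinase of the elongation factor P-TEFb. They were taken from a list of 35 gene symbols, and a probe set was assigned to a gene only where the platform annotation gave it that symbol alone. Values were obtained for 34 of the 35 genes, out of 18417 genes in all. PDIA3 has none, because its 2 probe sets also name another gene.

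Cells were transfected with siRNA against CDK9 or with a non-targeting siRNA (labelled as nonspecific in the titles), each at 10 nM, and RNA was taken 72 h later. Each group had 4 arrays, described by the submitters as biological replicates, and both carried the transfection itself. All 8 arrays came from 1 cell line, and the labels do not give the siRNA sequences. The first replicate of both groups (array set 1) had lower array medians than replicates 2 to 4 (array set 2), so the fit held a term for the set.

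Accumulation of unfolded protein in the endoplasmic reticulum (ER) is sensed by the membrane proteins ATF6, IRE1 (encoded by ERN1) and PERK (encoded by EIF2AK3). ATF6 and the spliced form of XBP1 made by IRE1 raise transcription of ER chaperones and of the machinery that retrieves and degrades misfolded proteins. PERK and the other eIF2 kinases phosphorylate the initiation factor eIF2, which slows translation in general while favouring translation of ATF4, so ATF4 activity is set largely at the protein level. Splicing of XBP1, cleavage of ATF6 and phosphorylation of eIF2 are not read by these arrays.

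CDK9 mRNA was 28.4% of the control level (95% confidence interval 26.4 to 30.5%), with log2 values of 8.0 to 9.09 under its siRNA and 9.81 to 10.9 in controls, and the sets of values did not overlap. Array medians were 5.80 and 5.85 in set 1 and 6.99 to 7.04 in set 2. Of 12 osteoblast lineage markers 10 were measured, of which 3 fell (RUNX2, MSX2 and COL1A1) and SPP1 rose, while IBSP and ALPL were among the 3 dim ones, meaning a mean in the lowest 30% of genes (below a log2 value of 6.14). Of 6 epithelial markers 5 were measured and 3 were dim, including EPCAM, which rose by 0.32 (adjusted p = 0.0841 when blocked by replicate number). All 5 measured blood cell markers of 6 were dim and none passed in limma (0 also at an unadjusted p under 0.05). The part of these markers in the members' differences was not tested.

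Changes were few and, with 1 exception, small. P4HB, which encodes protein disulfide isomerase, fell to 52.3% of the control level. The other calls were rises of ATF4, DDIT3, CEBPG, ERO1A and ERO1B and falls of CALR and PDIA4, all between 1.13-fold and 1.18-fold. In all, 5 of the 34 measured genes rose and 3 fell (limma with the array set as a block, threshold 0.05 after Benjamini-Hochberg adjustment across all genes). That is 23.5% of them, against 14.2% of all 18417 genes (6.73% higher and 7.47% lower). Only 1 of the 34 was dim, and among all genes that were not dim the share called was 18.5%. The dim one, ERO1B, was among those called. In a fit without the dim genes 7 of 33 members were called, beside 1417 genes higher and 1653 lower of 12892. The members' share called was then slightly below that of all genes tested. In RNA from whole cultures, fewer cells with a transcript and less of it per cell cannot be told apart. The median log2 difference was 0.03 over the 34 genes and 0.00 over all genes, and the median size of a difference was 0.10 and 0.09. The submitters name RMA, which scales arrays to each other, so differences are relative to the bulk of transcripts. A change shared by most mRNAs would not show in them, and the 0.00 does not measure total mRNA.

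When arrays were instead blocked by the replicate numbers of the titles (the paired fit), ERO1A and P4HB were the 2 members called, beside 9.17% of all genes. Without any block no member passed in limma (1 of 34 at an unadjusted p under 0.05), and no gene of the 18417 did. Within array set 2, the 3 values of both groups did not overlap for 19 of the 34 genes, 12 higher and 7 lower, against 38.1% of all genes. All 4 replicate pairs differed in the same direction for 18 of the 34 genes, beside 6078 of all 18417 genes. Both comparisons include the dim genes, 30% of all genes but 1 of the 34, and were not repeated without them.

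**Figure D1:**
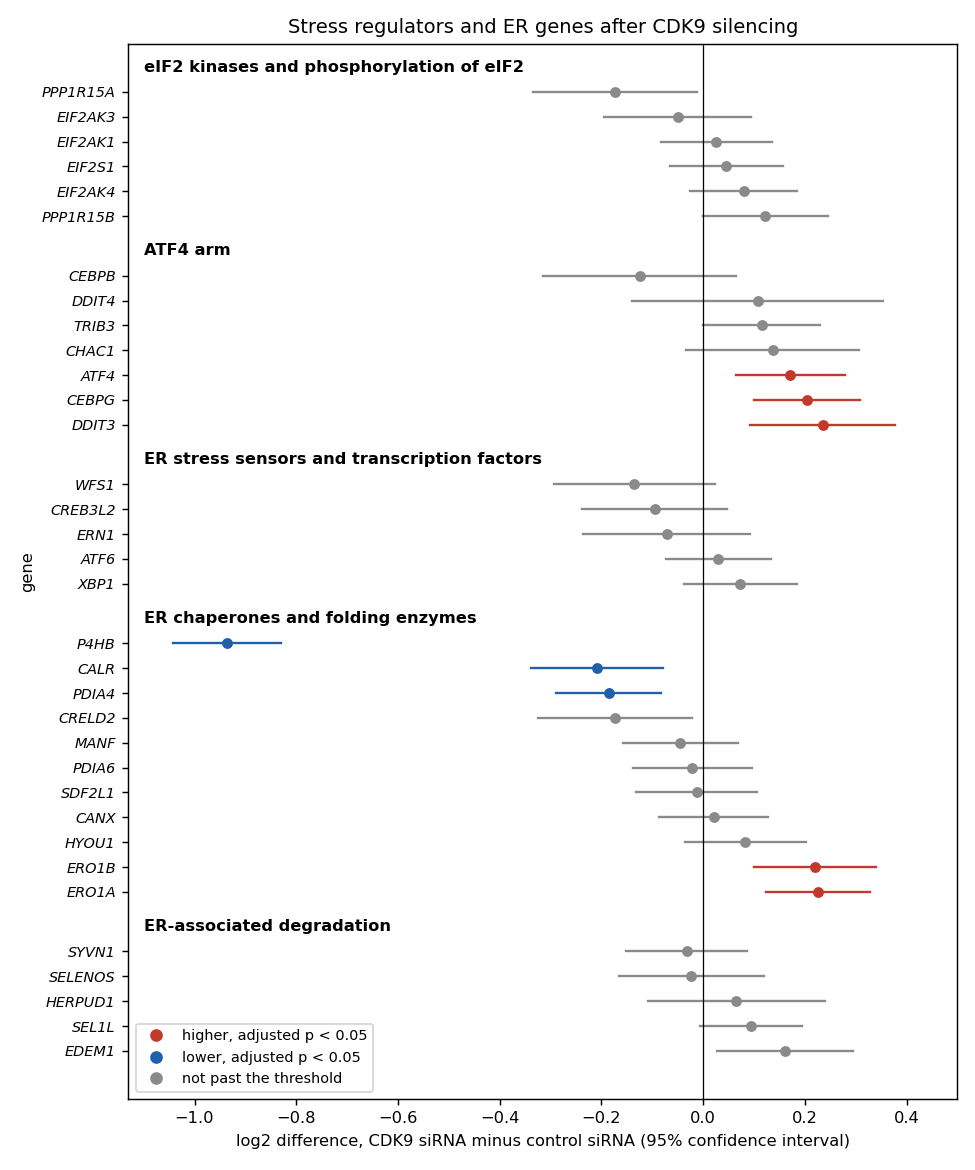
Log2 difference (CDK9 siRNA minus control siRNA) of the 34 measured genes on the horizontal axis, with 95% confidence intervals (limma, blocked by array set, 4 arrays a group), grouped by role. P4HB stands at -0.94, while the point estimates of the other 33 genes lie between -0.21 and 0.23.

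Promoter sequences of 5 members are shown because the ER stress response is best known through short elements in these windows, and because these genes span the range seen: P4HB with the largest difference, CALR (lower), ERO1B and CEBPG (higher), and HERPUD1, a standard reporter of ER stress whose difference did not pass. Each window holds 300 bases, 250 before the annotated start and 50 from it, read 5′ to 3′ on the gene's strand from RefSeq (GRCh38.p14). Capitals mark matches to the motifs searched, and in the 2 ER stress elements the free bases stay in lower case.

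P4HB (chr17:81860486-81860785, minus strand): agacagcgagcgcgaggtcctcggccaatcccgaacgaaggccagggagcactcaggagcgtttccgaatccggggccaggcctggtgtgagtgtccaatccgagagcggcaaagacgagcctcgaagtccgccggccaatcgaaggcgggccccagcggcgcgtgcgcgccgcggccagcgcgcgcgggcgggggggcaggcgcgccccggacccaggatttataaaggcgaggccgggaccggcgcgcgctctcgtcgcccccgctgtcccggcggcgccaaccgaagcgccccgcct

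CALR (chr19:12938359-12938658, plus strand): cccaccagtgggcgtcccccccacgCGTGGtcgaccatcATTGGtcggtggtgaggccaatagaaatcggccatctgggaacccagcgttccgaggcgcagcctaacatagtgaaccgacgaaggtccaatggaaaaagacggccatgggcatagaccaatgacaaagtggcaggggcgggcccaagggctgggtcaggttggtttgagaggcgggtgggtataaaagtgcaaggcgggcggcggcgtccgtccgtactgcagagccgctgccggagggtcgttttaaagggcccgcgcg

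ERO1B (chr1:236281909-236282208, minus strand): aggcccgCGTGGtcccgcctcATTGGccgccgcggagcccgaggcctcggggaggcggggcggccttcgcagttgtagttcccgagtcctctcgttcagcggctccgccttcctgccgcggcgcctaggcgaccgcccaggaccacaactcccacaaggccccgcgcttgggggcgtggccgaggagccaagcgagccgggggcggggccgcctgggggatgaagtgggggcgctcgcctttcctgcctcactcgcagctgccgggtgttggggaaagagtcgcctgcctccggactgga

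HERPUD1 (chr16:56931892-56932191, plus strand): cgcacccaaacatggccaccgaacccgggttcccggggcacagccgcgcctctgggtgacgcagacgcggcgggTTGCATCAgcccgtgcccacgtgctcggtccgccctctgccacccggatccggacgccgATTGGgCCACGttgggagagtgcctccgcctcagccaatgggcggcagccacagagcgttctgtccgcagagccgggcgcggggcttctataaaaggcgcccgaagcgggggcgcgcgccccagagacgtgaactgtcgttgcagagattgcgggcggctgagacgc

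CEBPG (chr19:33373863-33374162, plus strand): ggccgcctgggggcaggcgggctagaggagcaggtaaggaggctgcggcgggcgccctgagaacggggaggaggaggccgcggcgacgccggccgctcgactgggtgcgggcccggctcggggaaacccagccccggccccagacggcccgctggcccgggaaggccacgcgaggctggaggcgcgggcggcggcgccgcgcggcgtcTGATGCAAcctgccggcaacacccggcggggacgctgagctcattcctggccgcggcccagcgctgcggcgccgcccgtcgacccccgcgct

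The motifs were searched on both strands in all 35116 windows of the table, which held 33 of the 35 genes (EIF2AK1 and PDIA3 had no entry). The ER stress response element (ERSE; CCAAT, then 9 free bases, then CCACG), known to be bound by NF-Y and ATF6, matched 0.0769% of all windows. It matched windows of 6 members: CALR, CANX, CRELD2, ERO1B, PDIA6 and XBP1. Counted from the start, with bases before it negative, it lay at -225 to -207 in CALR and at -243 to -225 in ERO1B, in both cases as its reverse complement. The related ERSE-II (ATTGG, 1 free base, CCACG) matched 0.0541% of windows and those of 3 members, HERPUD1, HYOU1 and SDF2L1. For each motif a member counted if any of its windows matched, so counts of members and shares of windows are unlike units. The members had been chosen as genes of these stress responses, and enrichment was not tested.

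Of the 9 members with either element, ERO1B rose, CALR fell and 7 did not pass. The share called was not far from the 14.2% of all genes or the 18.5% of those not dim, and ERO1B itself is dim. Neither call held in the paired fit (adjusted p = 0.0670 and 0.0904). The 9 had log2 differences from -0.21 to 0.22 and a median of 0.02. The P4HB window held none of the motifs searched.

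The C/EBP-ATF response element (TGATGNAA), through which ATF4 and C/EBP partners are known to act, matched 3.62% of windows. It was found in 5 members, CEBPG, CHAC1, CREB3L2, HERPUD1 and PPP1R15B, none of them dim. CEBPG rose, though it did not pass in the paired fit (adjusted p = 0.0620), and the other 4 did not pass. Among all genes that were not dim, 18.5% were called. CEBPG has 2 windows, and the one shown was chosen because it held a match. There the element lay at -42 to -35. The core of the unfolded protein response element (TGACGTGG, 0.729% of windows) was found in HYOU1, where it overlaps an ERSE-II match, and the cyclic AMP response element (TGACGTCA, 1.85%) in CREB3L2 and PPP1R15A. These matches describe letters in a window and were not tested for binding.

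The eIF2 kinases and the genes that set eIF2 phosphorylation showed no call: 0 of 6 passed in limma (PPP1R15A had an unadjusted p of 0.0381, the other 5 lay above 0.05), and their median difference was 0.04. EIF2AK3, the ER-resident kinase PERK, read 6.83, 8.43, 8.30 and 8.41 in replicates 1 to 4 under CDK9 siRNA and 7.02, 8.31, 8.35 and 8.49 in controls, a log2 difference of -0.05 ± 0.06 (SE, n = 4 per group, adjusted p = 0.677). The groups overlapped within set 2. EIF2AK4, the amino acid sensor GCN2, differed by 0.08 (adjusted p = 0.314), higher in 4 of 4 replicate pairs. EIF2AK1, the haem-regulated kinase, differed by 0.03 (adjusted p = 0.784), and EIF2S1, the phosphorylated eIF2 subunit, by 0.05 (adjusted p = 0.612). For these 4 genes the 95% intervals ran from -0.19 (EIF2AK3) to 0.19 (EIF2AK4).

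PPP1R15A and PPP1R15B encode the inducible (GADD34) and the constitutive partner of the phosphatase that restores eIF2. PPP1R15A read 8.16, 9.36, 9.28 and 9.32 under CDK9 siRNA and 8.06, 9.53, 9.62 and 9.61 in controls. All 3 values of set 2 were below their controls, and the set 1 value was above its control. Its log2 difference was -0.17 ± 0.07 (adjusted p = 0.150), with 0.11 in set 1 and -0.27 in set 2, where it passed (adjusted p = 0.0110, n = 3 per group). The difference between the sets did not pass the test over all genes (adjusted p = 0.0959). PPP1R15B differed by 0.12 (adjusted p = 0.181), higher in 4 of 4 pairs.

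In the ATF4 arm 3 of 7 genes rose and 0 fell, beside 6.73% and 7.47% of all genes, and the median difference was 0.14. The 7 were not dim, and among all genes that were not dim 18.5% were called in either direction. None of the 3 passed in the paired fit (adjusted p = 0.0620 for CEBPG, 0.0668 for DDIT3 and 0.0955 for ATF4). CEBPG, a C/EBP factor that pairs with ATF4, read 8.38, 9.0, 9.07 and 9.02 under CDK9 siRNA and 8.15, 8.85, 8.81 and 8.83 in controls. It was higher in 4 of 4 pairs, without overlap in set 2. The rise was 1.15-fold (log2 0.20 ± 0.05 SE over 4 arrays a group, adjusted p = 0.0182), with 0.23 in set 1 and 0.20 in set 2. CEBPG did not pass in the paired fit (adjusted p = 0.0620), nor without CDK9 siRNA replicate 3 (0.0575) or control replicate 3 (0.0701) or 4 (0.0579).

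DDIT3 encodes CHOP, a pro-apoptotic transcription factor downstream of ATF4. It read 6.17, 8.57, 8.42 and 8.69 under CDK9 siRNA and 5.89, 8.31, 8.36 and 8.35 in controls, and all 4 pairs were higher. Replicate 3 stood closest to its control, at a difference of 0.07 against 0.26 to 0.34 in the other 3 pairs. The rise was 1.18-fold (log2 0.23 ± 0.06 SE, adjusted p = 0.0375). The paired fit gave an adjusted p of 0.0668. The call was also lost in set 2 alone (0.0734) and when any array other than CDK9 siRNA replicate 3 was left out (0.0734 to 0.0970).

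ATF4 itself was read by 2 probe sets that disagreed. The brighter one (8180337), used in the fit, read 11.3, 11.8, 11.9 and 11.8 under CDK9 siRNA and 11.0, 11.6, 11.7 and 11.7 in controls, higher in 4 of 4 pairs and 1.13-fold overall (log2 0.17 ± 0.05 SE, adjusted p = 0.0421). The other (8073148) read 8.04, 9.84, 9.60 and 9.72 against 8.0, 9.87, 9.76 and 10.1, a log2 difference of -0.13 ± 0.09 (adjusted p = 0.385), lower in 3 of 4 pairs. With the mean of both the difference was 0.02. The call was lost in the paired fit (adjusted p = 0.0955), with arrays centred on their medians, and when any 1 of the 8 arrays was left out (0.0508 to 0.113).

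The remaining genes of the arm did not pass. TRIB3, a pseudokinase that restrains ATF4 activity, differed by 0.12 (adjusted p = 0.178) and CHAC1, a glutathione-degrading enzyme, by 0.14 (adjusted p = 0.284). CEBPB, another C/EBP factor, differed by -0.12 (adjusted p = 0.386), with 0.14 in set 1 and -0.21 in set 2. DDIT4, the inhibitor of mTORC1 also called REDD1, read 5.85, 7.60, 7.59 and 7.58 under CDK9 siRNA and 5.22, 7.62, 7.70 and 7.65 in controls. It was higher in set 1 (0.63) and lower in set 2 (-0.07), a difference of 0.70 between the sets (adjusted p = 0.0223). DDIT4 was the 1 member whose difference depended on the set by this test, beside 2.14% of all genes, and its overall difference was 0.11 ± 0.11 (adjusted p = 0.589).

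**Figure D2:**
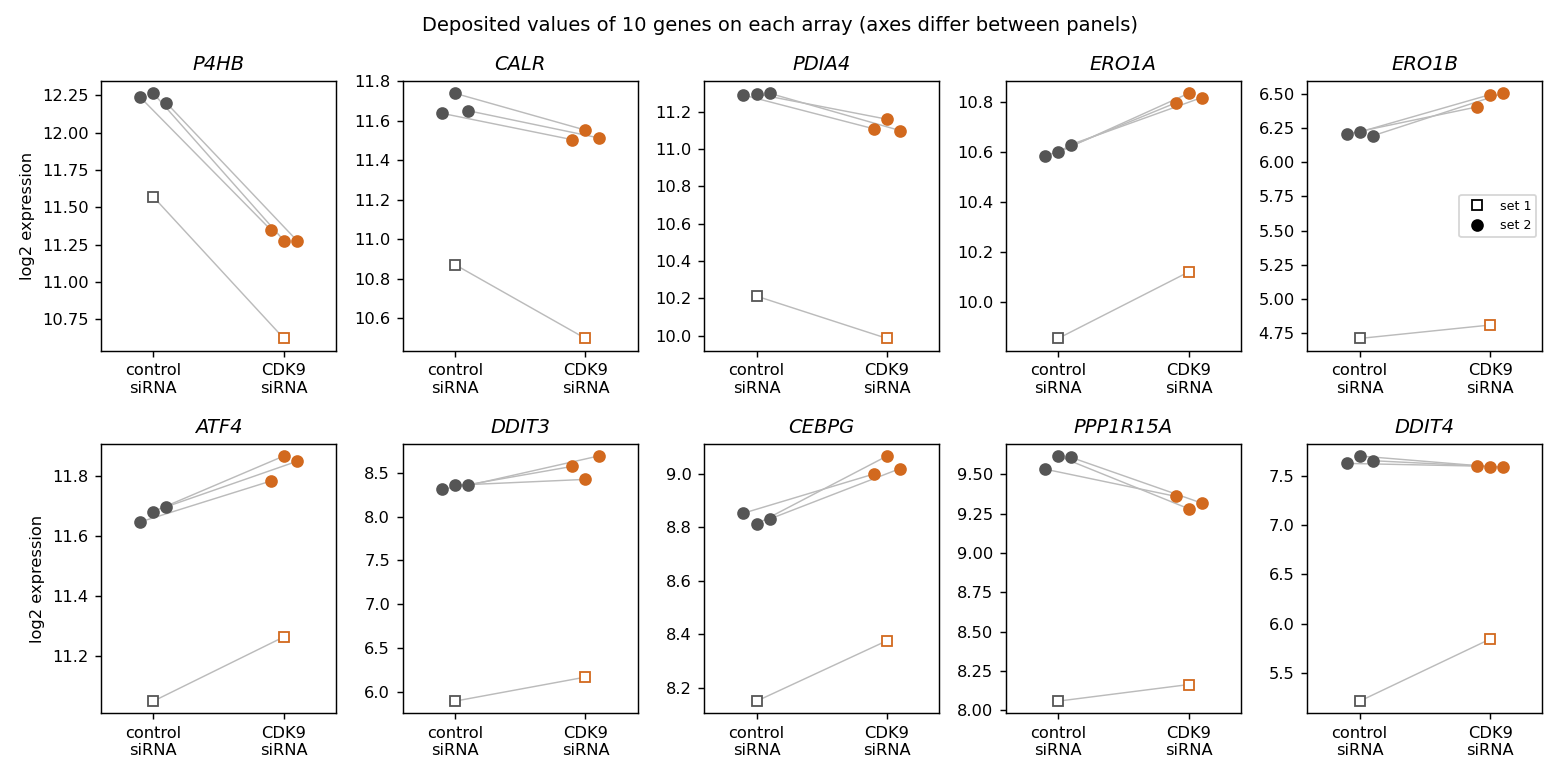
Deposited log2 expression on each array for the 8 called genes and for PPP1R15A and DDIT4, with control siRNA on the left and CDK9 siRNA on the right of each panel. Open squares are set 1 (replicate 1), filled circles are set 2 (replicates 2 to 4), and grey lines join arrays of the same replicate number. P4HB is lower in 4 of 4 pairs, and the DDIT4 line slopes up in set 1 only.

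None of the 5 ER stress sensors and their transcription factors passed in limma (0 of 5, and 0 of 5 at an unadjusted p under 0.05), and their median difference was -0.07. ATF6 differed by 0.03 (95% interval -0.07 to 0.13) and XBP1 by 0.07 (-0.04 to 0.19). The XBP1 values were 9.22, 10.1, 10.1 and 10.2 under CDK9 siRNA and 9.14, 10.0, 10.0 and 10.1 in controls, and they overlapped within set 2. ERN1, the sensor IRE1, differed by -0.07 (adjusted p = 0.586), with 0.19 in set 1 and -0.16 in set 2, where its groups did not overlap. CREB3L2, an ER-tethered transcription factor, differed by -0.10 (adjusted p = 0.380), with -0.33 in set 1 and -0.02 in set 2. WFS1, the ER membrane protein wolframin, which restrains ATF6, differed by -0.14 (adjusted p = 0.250) and was lower in 4 of 4 pairs.

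The ER chaperones and folding enzymes held 5 of the 8 calls, with 2 of 11 measured genes higher and 3 lower (beside 14.2% of all genes called, and 18.5% of those not dim) and a median difference of -0.02. In the paired fit 1 was higher (ERO1A) and 1 lower (P4HB). P4HB forms and rearranges disulfide bonds in the ER and is also the shared beta subunit of collagen prolyl 4-hydroxylase. It read 10.6, 11.3, 11.3 and 11.3 under CDK9 siRNA and 11.6, 12.2, 12.3 and 12.2 in controls. Every value under CDK9 siRNA lay below every control value, even across the 2 array sets. This was a log2 difference of -0.94 ± 0.05 (SE over 4 arrays a group, adjusted p = 2.01e-05), which left 52.3% of the control signal (95% interval 48.6 to 56.3%).

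The P4HB difference was alike in set 1 (-0.95) and set 2 (-0.93), and the 4 replicate pairs lay between -0.99 and -0.89. Its second probe set (8019762) gave -0.93 ± 0.06. It ranked 5 by p among all genes. In the paired fit its adjusted p was 0.000657, and leaving out any 1 array gave differences of -0.95 to -0.93 and adjusted p values up to 0.000273.

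Other disulfide isomerases moved less. PDIA4, also called ERp72, read 9.98, 11.1, 11.2 and 11.1 under CDK9 siRNA and 10.2, 11.3, 11.3 and 11.3 in controls, lower in 4 of 4 pairs and without overlap in set 2. Its log2 difference was -0.19 ± 0.05 (adjusted p = 0.0266, and 0.0782 in the paired fit). The call was lost without CDK9 siRNA replicate 2 or 4 (0.0622 and 0.0630) or control replicate 2, 3 or 4 (0.0672, 0.0827 and 0.0771), and with arrays centred on their medians. PDIA6 differed by -0.02 (95% interval -0.14 to 0.10).

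ERO1A and ERO1B encode the oxidases that pass oxidising equivalents to protein disulfide isomerase, and both rose while P4HB fell. ERO1A read 10.1, 10.8, 10.8 and 10.8 under CDK9 siRNA and 9.85, 10.6, 10.6 and 10.6 in controls, higher in 4 of 4 pairs and without overlap in set 2. The rise was 1.17-fold (log2 0.23 ± 0.05 SE, adjusted p = 0.0113), with 0.27 in set 1 and 0.21 in set 2. It passed in the paired fit (adjusted p = 0.0431) and without any 1 of the 8 arrays (adjusted p up to 0.0441).

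ERO1B was the dim member. It read 4.81, 6.40, 6.49 and 6.50 under CDK9 siRNA and 4.71, 6.21, 6.22 and 6.19 in controls, again higher in 4 of 4 pairs. The rise was 1.16-fold (log2 0.22 ± 0.05 SE, adjusted p = 0.0241), with 0.10 in set 1 and 0.26 in set 2. It did not pass in the paired fit (adjusted p = 0.0670), nor without CDK9 siRNA replicate 3 or 4 (0.0727 and 0.0624) or control replicate 2, 3 or 4 (0.0716, 0.0769 and 0.0787), nor under another variance model (trend and robust).

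The lectin chaperones calreticulin and calnexin, which bind monoglucosylated glycoproteins, differed in their values. CALR read 10.5, 11.5, 11.6 and 11.5 under CDK9 siRNA and 10.9, 11.6, 11.7 and 11.7 in controls, lower in 4 of 4 pairs. Its log2 difference was -0.21 ± 0.06 (adjusted p = 0.0419), with -0.37 in set 1 and -0.15 in set 2. The call was lost in the paired fit (adjusted p = 0.0904), in set 2 alone (0.0725), with arrays centred on their medians and without any 1 of the 8 arrays (0.0607 to 0.125). CANX differed by 0.02 (95% interval -0.09 to 0.13), and the difference between the 2 genes was not tested.

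The other chaperone genes did not pass. CRELD2, a secreted ER stress protein that acts on disulfides, was lower in 4 of 4 pairs at -0.17 ± 0.07 (adjusted p = 0.127). MANF, a secreted ER stress factor, was lower in 4 of 4 pairs at -0.04 (adjusted p = 0.629), and HYOU1, an ER relative of HSP70, higher in 4 of 4 at 0.08 (adjusted p = 0.357). SDF2L1, a partner of ER DNAJ proteins, differed by -0.01 (95% interval -0.13 to 0.11).

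None of the 5 genes of ER-associated degradation passed in limma (1 of 5, EDEM1, had an unadjusted p under 0.05), and their median difference was 0.06. EDEM1, which directs misfolded glycoproteins to degradation, read 8.23, 9.59, 9.76 and 9.82 under CDK9 siRNA and 8.12, 9.56, 9.56 and 9.52 in controls. It was higher in 4 of 4 pairs, at 0.16 ± 0.06 (adjusted p = 0.111). SEL1L, the adaptor of the ubiquitin ligase HRD1, differed by 0.09 (adjusted p = 0.211), also higher in 4 of 4 pairs. SYVN1, which encodes HRD1 itself, differed by -0.03 (adjusted p = 0.749) and SELENOS, a selenoprotein of the same complex, by -0.02 (adjusted p = 0.858). HERPUD1 differed by 0.06 ± 0.08 (adjusted p = 0.650), with -0.15 in set 1 and 0.14 in set 2.

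**Figure D3:**
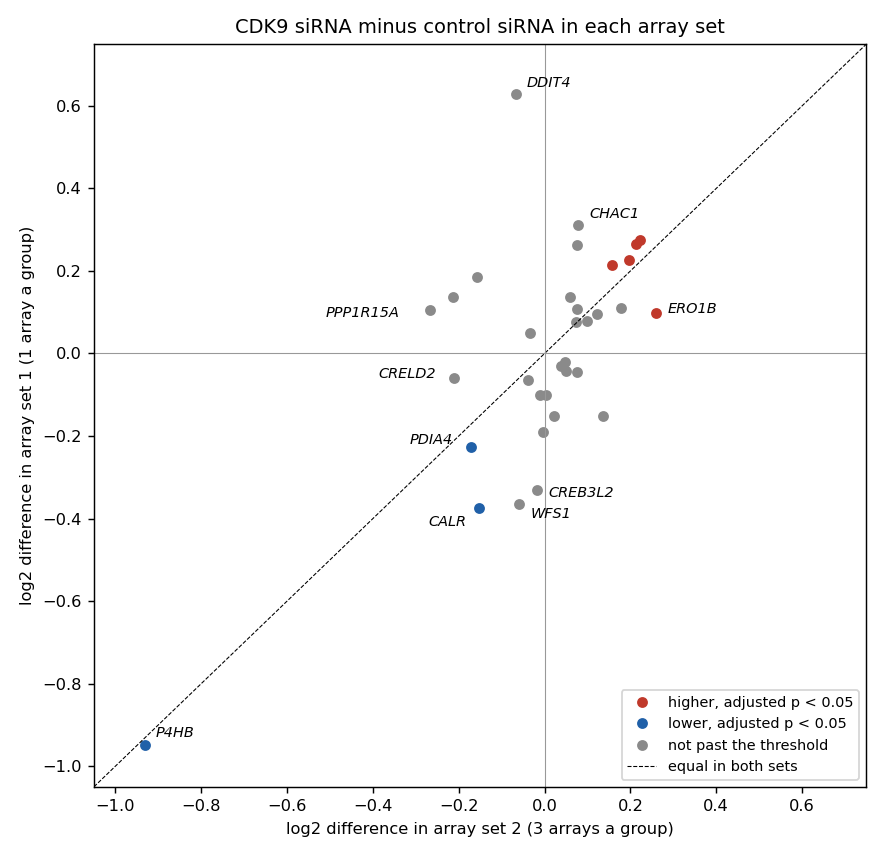
Log2 difference (CDK9 siRNA minus control siRNA) of the 34 genes in array set 1 (vertical, 1 array a group) against array set 2 (horizontal, 3 arrays a group), with a dashed line where both are equal. P4HB lies on that line near -0.93, and DDIT4 lies at -0.07 in set 2 and 0.63 in set 1.

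Across the 34 genes, 22 had the same sign in both sets, beside 10477 of all 18417 genes, dim ones included. The 8 called genes were among the 22, but their calls come from a fit that held both sets. The median difference was 0.06 in set 1 and 0.04 in set 2. Because set 1 has a single array in each group, its values carry no spread of their own.

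Other genes of the same pathways were read from 6 further lists, in which 27 of 149 measured genes rose and 8 fell. These are 18.1% and 5.37% of them, beside 6.73% and 7.47% of all genes. In either direction 23.5% of the 149 were called, beside 14.2% of all genes and 18.5% of those not dim. Only 2 of the 149 were dim. These lists, like the members, were chosen with earlier results of these data known, so their shares of calls are a description and not a test. By list the share called was 37.5% for the ATF4 targets and 6.9% for the translocon list. The remaining lists lay between 22.2% and 26.7%. The ATF4 targets of amino acid supply held the most calls, with 12 of 32 higher and 0 lower and a median difference of 0.10. The 3 largest were the neutral amino acid transporter SLC1A4 (0.92), the cystine transporter SLC7A11 (0.78) and the cysteine-forming enzyme CTH (0.73). These differences exceeded that of ATF4 mRNA (0.17 or -0.13 by probe set), and 10 of the 12 also passed in the paired fit. The 12 include the lipoprotein receptor gene VLDLR (0.52), and the 32 include STC2, which encodes a secreted protein. Neither of these genes supplies amino acids. The list also holds aminoacyl-tRNA synthetase genes, of which CARS1 was called. It further holds the tRNA exporter XPOT (not called) and the folate enzymes MTHFD2 and ALDH1L2 (called).

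Among other eIF2, eIF2B and ATF4-arm regulators, 3 of 21 rose and 2 fell. EIF2B2 (0.34), a subunit of the exchange factor that recycles eIF2, DENR (0.27), a reinitiation factor, and IMPACT (0.20), an inhibitor of GCN2, rose. EIF2B4, another eIF2B subunit (-0.25), and EIF2S3, an eIF2 subunit (-0.18), fell. IMPACT and EIF2S3 did not pass in the paired fit (adjusted p = 0.0612 and 0.106). Without 1 array at a time, EIF2S3 passed in 0 of 8 fits and IMPACT in 1 of 8.

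Of 27 other ER chaperones and folding enzymes, 4 rose and 2 fell. The calnexin relative CLGN rose by 0.94, with 0.40 in set 1 and 1.12 in set 2. The folding sensor UGGT2 (0.27) and HSPA5, the chaperone BiP (0.26), also rose. The HSPA5 rise was 0.19 in set 1 and 0.28 in set 2. SERPINH1, the collagen chaperone HSP47, fell by 0.37 and the oxidase QSOX1 by 0.25.

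Among other degradation genes 4 of 25 rose, led by ERLIN1 (0.31), UBXN4 (0.27) and UBE2G2 (0.19, adjusted p = 0.0831 in the paired fit), and 2 fell, the lectin OS9 (-0.33) and the mannosidase-like EDEM2 (-0.22). EDEM2 did not pass without control replicate 3 or 4 (adjusted p up to 0.0571). Of 29 genes of the translocon, signal peptidase and oligosaccharyltransferase, SSR3 rose (0.26) and the channel subunit SEC61A1 fell (-0.35). Among 15 other sensors, proteases and factors 3 rose and 1 fell. MBTPS2, the site-2 protease that releases ATF6 (0.30), CREB3L4 (0.26, adjusted p = 0.0619 in the paired fit) and TMBIM6 (0.25) rose, and NFYA, a subunit of the CCAAT-binding factor NF-Y, fell by 0.41. Without 1 array at a time, UBE2G2 passed in 3 of 8 fits and CREB3L4 in 2 of 8.

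**Figure D4:**
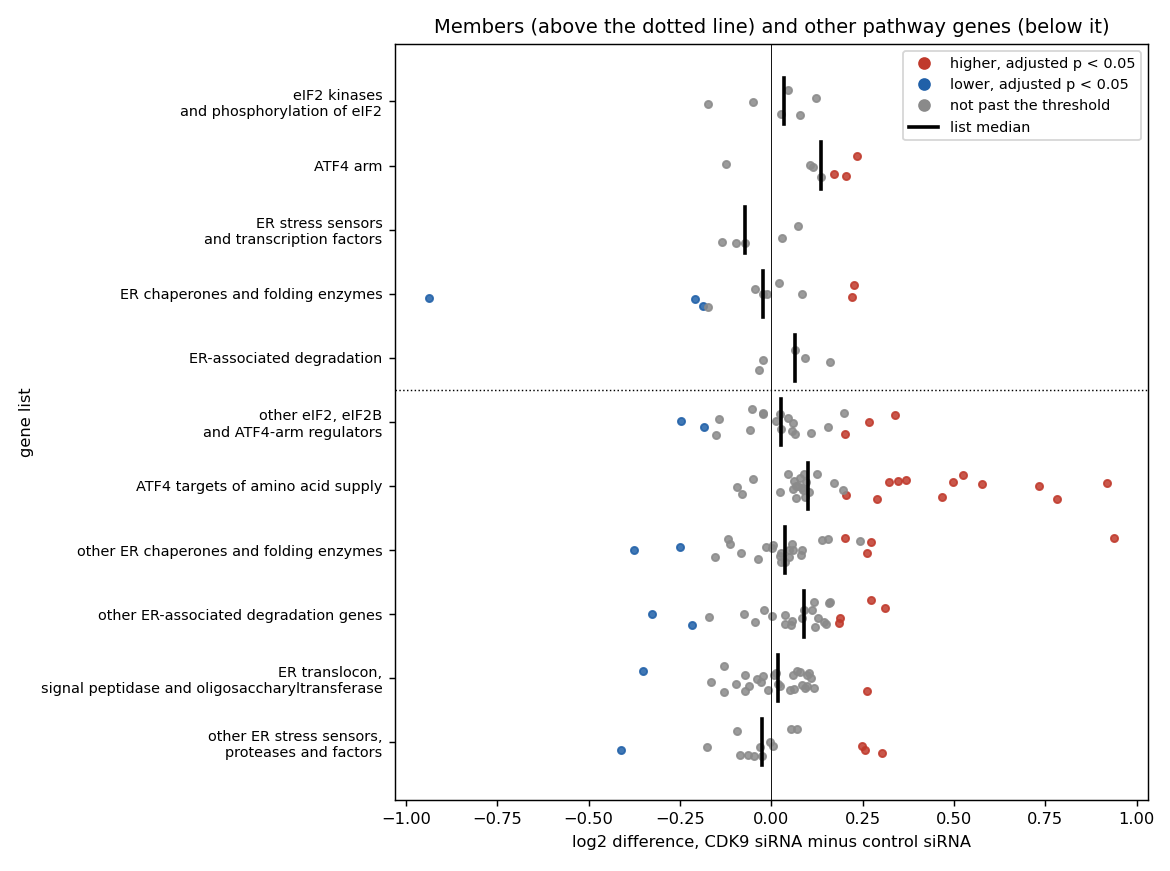
Log2 difference (CDK9 siRNA minus control siRNA) of each measured gene, by list, with the 5 role groups of the members above the dotted line and 6 lists of other pathway genes below it. Points are genes (vertical scatter has no meaning), black bars are list medians, and red and blue points passed limma with the array set as a block. The ATF4 targets of amino acid supply reach 0.92, and 0 of the 32 passed as lower, although some points lie below 0.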

How the data were processed

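The authors deposited log2 values for 33297 probe sets on 8 Affymetrix human gene arrays. The notes on processing by the submitters name Affymetrix Expression Console 1.1, RMA, hg19 and limma, without their roles. Whether all 8 arrays went through normalization jointly is not stated there. Of the probe sets, 19460 had 1 symbol, 1754 several and 12083 none. The brightest probe set with 1 symbol stood for each gene. All 36 probe sets of the members matched RefSeq (GRCh38.p14) by Entrez identifier. Groups were tested (two-sided) by lmFit and eBayes of limma 3.58.1 under R 4.3.3 across all 18417 genes, blocked by array set, and the fit was tested on simulated data. A model with a group by array set term tested whether differences depend on the set. Figures used Python 3.11.15 and matplotlib 3.10.9.

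The members and lists were chosen with earlier results of these data known. All members are named, and of each further list up to 3 called genes in each direction with the largest differences. Same-numbered arrays deviated together (correlations 0.822, 0.537, 0.494 and 0.607 for replicates 1 to 4), so the numbers were treated as pairs in an alternative fit, although set 2 arrays of different numbers gave 0.405 to 0.561. With deviations taken within set 2, same-numbered arrays gave 0.108, -0.011 and 0.170 for replicates 2 to 4, so the support for pairing is weak there. Whether replicates came from separate cultures beyond the design text's word is not stated, so p-values measure the spread between these arrays. Their number limits the precision. Alternatives tried were no block, the replicate block, set 2 alone, other scalings, a filter on dim genes, another variance model, averaged probe sets, and each array left out.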

Additional observations from a re-analysis of the deposited data

Results flagged for a closer look

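The DDIT4 difference was 0.70 higher in array set 1 than in array set 2 on the log2 scale, past the test of the difference between sets (limma, adjusted p = 0.0223). With 1 array a group in set 1, this rests on 2 arrays, and the cause was not tested.

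In 60 of 68 groups of 4 deposited values (34 genes, 2 groups), replicate 1 stood apart from the other 3, by a gap past Dixon's 95% critical value. The shift of set 1 moves with this, and both groups carry it. After array set means were removed, 4 of 68 groups held such a value, 3 of them in replicate 1. They were CREB3L2 in CDK9 siRNA replicate 1 (7.59), DDIT4 in CDK9 siRNA replicate 1 (7.41), HYOU1 in control replicate 3 (9.73) and PPP1R15B in control replicate 1 (9.82). The usual rate of 1 in 20 groups does not apply to these values. Once the set mean is removed, a gene's 2 replicate 1 values mirror each other.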

How the results depend on the processing

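Against 5 members higher, 3 lower and 2615 of all genes called in the fit blocked by array set, no block gave 0, 0 and 0 (limma), and the replicate block 1, 1 and 1688. Array set 2 alone gave 3 higher, and arrays centred on their medians 1 lower. Leaving out 1 array gave 1 to 3 members higher, 1 to 3 lower and 1520 to 3331 genes in all, with fewer arrays in the fit (1520, 1685, 1715 and 1654 without control replicate 3, 4 or 2 or CDK9 siRNA replicate 3). P4HB and ERO1A passed in 15 of 16 alternatives, all but the fit without a block. Of the 16, set 2 alone and leaving out replicate 1 of either group are the same fit. Of members that did not pass, the sign turned for DDIT4 (-0.0669), PDIA6 (0.0216) and SELENOS (0.00222) in set 2 alone and for SDF2L1 (0.00636) with quantile normalization again. Without 1 array these ranged from -0.0669 to 0.152 (DDIT4), -0.0394 to 0.0216 (PDIA6), -0.0625 to 0.0116 (SELENOS) and -0.0375 to 0.00798 (SDF2L1). No other member's sign turned. Causes were not tested. Members' shares of calls should be read at the precision of 4 arrays a group, and alternatives for genes outside the members were chosen after seeing the data.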
